A study of Mus musculus with 46 samples.

Results

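Glutathione is the main small thiol of the cell and is made from glutamate, cysteine and glycine. Glutamate-cysteine ligase joins glutamate to cysteine in the rate-limiting step, and glutathione synthetase adds glycine. The cysteine comes in large part from cystine taken up in exchange for glutamate, glutathione reductase returns oxidised glutathione to its reduced form, and gamma-glutamyltransferase at the cell surface starts the breakdown of exported glutathione. Several of these genes are known targets of Nrf2, a transcription factor encoded by Nfe2l2 that binds antioxidant response elements, and glutathione is abundant in the fluid lining the airways.

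The genes described here are Gclc and Gclm (the catalytic and modifier subunits of glutamate-cysteine ligase), Gss (glutathione synthetase), Gsr (glutathione reductase), Slc7a11 (xCT, the cystine-binding chain of the cystine and glutamate exchanger) and Ggt1 (a gamma-glutamyltransferase). They were chosen by symbol, and the probe set annotation of the arrays tied 10 of 36701 probe sets to 5 of the 6 genes. Ggt1 had no probe set under its symbol and was not analysed here. The tests covered 26821 probe sets and 13404 genes, among them 9 of the 10 probe sets and all 5 measured genes. Each gene is represented by its brightest probe set, and the others are given beside it.

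Lung RNA was measured on 46 oligonucleotide arrays of 3 types, called A, B and C. The mice were Nrf2 mutant or wild type and were sampled at 0 h or after 24, 48 or 72 h in 100% oxygen, which gives 8 groups: mutant at 0, 24, 48 and 72 h and wild type at the same times. Most groups had 2 arrays of each type, from replicates 1a and 1b. The exceptions, on type A, had replicate 1b alone: unexposed mutants, and wild type lungs of 24 h. Nothing in the labels ties 1a and 1b to separate animals, so p-values measure only the spread between these samples, which may be technical. The labels name neither the structure of the mutation nor the strain, age or sex of the mice.

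Nfe2l2 itself was checked first. Its intensity lay between 303 and 448 on the 7 mutant arrays, against 2428 to 4488 on the 7 wild type arrays, with no overlap. Its limma log2 difference lay between -3.17 at 72 h and -2.31 at 0 h, with an adjusted p no higher than 0.00162 at any time. Which part of the transcript this probe set reads relative to the mutation was not tested. Lung markers were bright on every array, with Sftpc between 9365 and 28541 and Scgb1a1 between 14184 and 37425. The mutant arrays at 0 h stood apart. Their ratio of 3' to 5' Gapdh control signal was 1.67 to 2.26 on 5 arrays, against 0.858 to 1.54 on the 41 others. On the 1 type A array among them, 6 skeletal muscle markers summed to 27810, where the other type A arrays reached at most 3211. On the same array 5 squamous epithelium markers summed to 21220, where the others reached at most 2703. The genotype comparison at 0 h, the responses of the mutant and the differences in response rest on these arrays. Many of the responses are therefore also given against wild type at 0 h or from 48 h.

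Promoter sequence was at hand for Gclm, Slc7a11 and Gss, as the 250 bases before 1 RefSeq start of each gene on GRCm38.p6. For Gclm and Slc7a11 that start lies inside the full span of the gene given below, so it is not the outermost one. Windows of the unmeasured Ggt1 are not used here. A pair of motifs was searched on both strands: TGACNNNGC, the core of the antioxidant response element to which Nrf2 binds, and TGATGCAA, the core of the amino acid response element to which ATF4 binds. The antioxidant core was present in 3338 of 32851 such windows (10.2%), and the amino acid core in 260 (0.791%). The windows of Gclm and Slc7a11 are shown because they hold different motifs, with the matches in capitals.
Gclm, chr3:122245307-122245556, plus strand: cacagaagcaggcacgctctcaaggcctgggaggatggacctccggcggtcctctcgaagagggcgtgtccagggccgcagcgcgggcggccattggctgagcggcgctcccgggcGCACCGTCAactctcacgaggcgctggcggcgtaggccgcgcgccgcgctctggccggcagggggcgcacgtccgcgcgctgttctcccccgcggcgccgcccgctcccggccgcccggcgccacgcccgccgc
Slc7a11, chr3:50443614-50443863, minus strand: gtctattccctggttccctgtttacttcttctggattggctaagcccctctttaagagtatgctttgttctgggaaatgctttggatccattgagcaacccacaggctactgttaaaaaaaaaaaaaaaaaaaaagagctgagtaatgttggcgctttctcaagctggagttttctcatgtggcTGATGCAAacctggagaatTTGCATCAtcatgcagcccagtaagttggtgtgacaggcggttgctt
The Gclm window had 1 antioxidant core, on the opposite strand, beginning 134 bases before the start, and no amino acid core. The Slc7a11 window had 2 amino acid cores, 1 on each strand, beginning 66 and 47 bases before the start, and no antioxidant core. The Gss window, on chromosome 2, had neither. A match describes letters in the window and is not a measured binding site, and sequence outside the window was not searched.

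Gclc, Gclm and Slc7a11 were lower in mutant than in wild type lungs at 72 h of oxygen, and Gss and Gsr did not pass the test. Across all tested probe sets, 0.466% were called lower in the mutant at 72 h at a limma adjusted p under 0.05. Of the 5 measured genes 3 were called. The median log2 difference at 72 h was -1.68 over the 5 genes and -0.00843 over all tested probe sets.

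**Figure D1:**
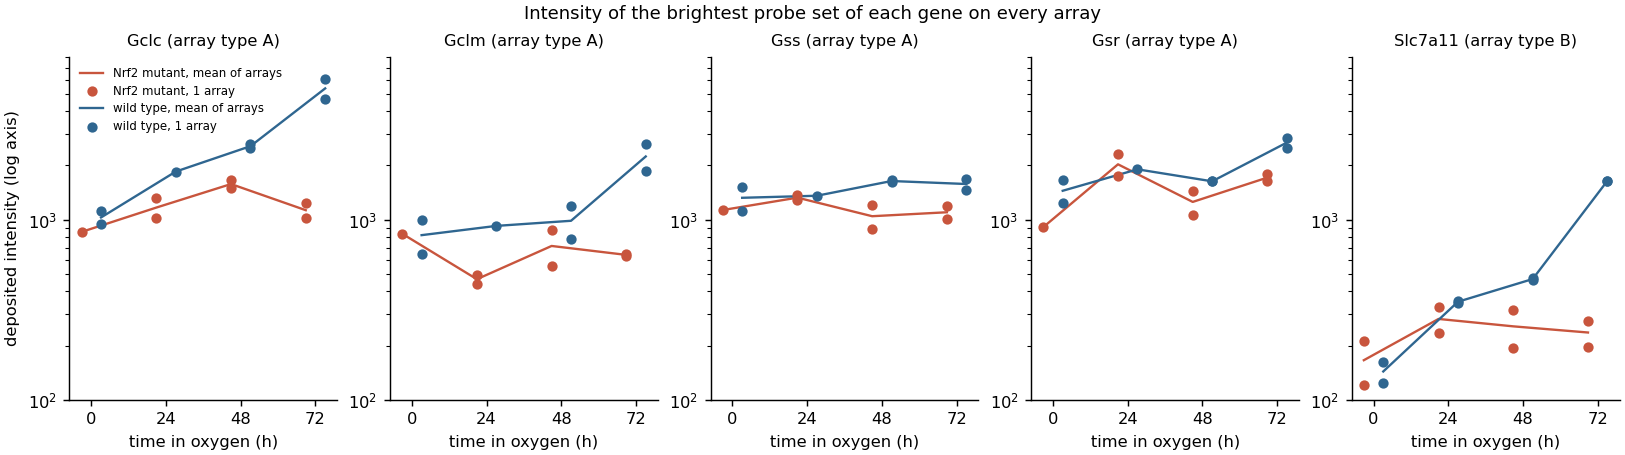
Deposited intensity of the brightest probe set of each gene on every array, on a log axis, against hours in oxygen, with mutant points left of wild type points and lines through the group means. At 72 h the wild type arrays lie above the mutant arrays by the most for Slc7a11 and Gclc, and the differences of Gss and Gsr did not pass the test.

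Gclc (chromosome 9, 77754535 to 77794489, GRCm38) encodes the subunit that carries the catalytic site. On the mutant arrays its intensity was 855 at 0 h, 1023 and 1312 at 24 h, 1504 and 1651 at 48 h, and 1237 and 1021 at 72 h. On the wild type arrays it was 1112 and 946 at 0 h, 1850 at 24 h, 2502 and 2618 at 48 h, and 4688 and 6032 at 72 h. The wild type levels stood in the order of time without overlap, and every mutant array lay below the wild type array at 24 h. The mean intensity at 72 h was 4.75-fold lower in mutant than in wild type lungs. At 0, 24, 48 and 72 h the log2 differences between genotypes were -0.24 ± 0.23, -0.64 ± 0.23, -0.67 ± 0.19 and -2.17 ± 0.19 (± SE). Of these, the last passed the test (limma adjusted p = 0.000548), and the others did not (adjusted p = 0.665, 0.412 and 0.240). The mean difference over the oxygen times was -1.16 ± 0.12, with a limma adjusted p of 0.000956.

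A dimmer Gclc probe set on type B came from separate arrays of the same groups. It read 69 and 38 on the mutant arrays at 72 h, against 456 and 741 on the wild type arrays. Its mutant intensities were at most 222 at any time, below the filter value of 273 for type B, so no fold is given. Its log2 difference at 72 h was -1.99 ± 0.39 (limma adjusted p = 0.0351). Only the wild type arrays of 48 and 72 h lay above the filter value. This probe set was therefore tested because of the groups where it was high. Its calls are given as a description and not as support for those of the brighter probe set.

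Gclm (chromosome 3, 122245487 to 122267215, GRCm38) encodes the modifier subunit, which raises the activity of the catalytic subunit. On the mutant arrays its intensity was 836 at 0 h, 493 and 441 at 24 h, 556 and 873 at 48 h, and 643 and 631 at 72 h. On the wild type arrays it was 641 and 999 at 0 h, 924 at 24 h, 780 and 1192 at 48 h, and 1859 and 2630 at 72 h. Wild type at 72 h stood above every other group, and the genotypes overlapped at 0 h and at 48 h. The mean at 72 h was 3.52-fold lower in mutant lungs, a log2 difference of -1.68 ± 0.28 (limma adjusted p = 0.0225). The differences at 0, 24 and 48 h were 0.05 ± 0.34, -0.88 ± 0.34 and -0.43 ± 0.28, and none passed (adjusted p = 0.961, 0.440 and 0.729). The mean over the oxygen times was -0.99 ± 0.175 (limma adjusted p = 0.0201), and without 1 replicate its adjusted p ranged up to 0.0651, with the call lost for 7 of 15 replicates. The call at 72 h was lost without any 1 of the 4 arrays of that time, with differences of -1.92 to -1.44 and adjusted p of 0.0573 to 0.195.

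Both further Gclm probe sets were on type B. The brighter of them read 747 and 621 on the mutant arrays at 72 h, against 1722 and 1578 on the wild type arrays, a 2.41-fold lower mean. Its log2 difference was -1.14 ± 0.21 (limma adjusted p = 0.0286). At 0 h it read 336 and 548 in mutant lungs, against 654 and 971 in wild type lungs, and that difference of -0.73 ± 0.21 did not pass (limma adjusted p = 0.0937). At 0 h the groups were thus apart on this probe set and overlapped on the one of type A. The dimmer one lay between 154 and 421 on all arrays and was called in no comparison.

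**Figure D2:**
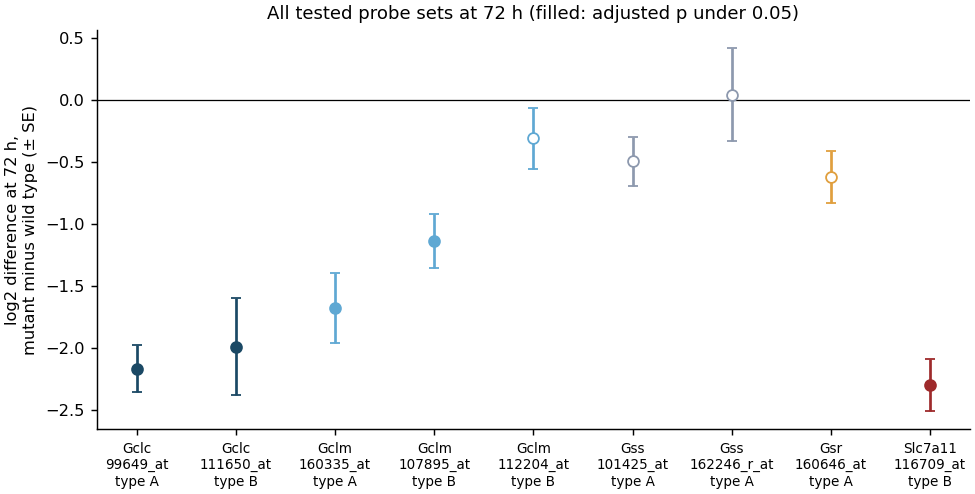
Log2 difference at 72 h, mutant minus wild type, with its SE, for the 9 tested probe sets of the 5 genes, by gene and array type. Filled points passed a limma adjusted p of 0.05, and both Gclc probe sets, 2 of 3 Gclm probe sets and the Slc7a11 probe set are filled. The type B Gclc probe set was above the filter value only on wild type arrays.

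Slc7a11 (chromosome 3, 50364936 to 50499087, GRCm38) brings cystine into the cell together with its partner chain Slc3a2. On the mutant arrays of type B its intensity was 121 and 211 at 0 h, 329 and 233 at 24 h, 195 and 316 at 48 h, and 197 and 275 at 72 h. On the wild type arrays it was 124 and 163 at 0 h, 354 and 346 at 24 h, 472 and 465 at 48 h, and 1646 and 1642 at 72 h. The genotypes overlapped at 0 h, and the wild type groups stood apart from each other and from 0 h at every later time. In the mutant, the arrays at 24 h lay above those at 0 h, and no other pair of mutant groups was apart. At 0, 24, 48 and 72 h the log2 differences between genotypes were 0.10 ± 0.21, -0.24 ± 0.21, -0.66 ± 0.21 and -2.30 ± 0.21. The limma adjusted p was 0.000232 at 72 h and 0.862, 0.770 and 0.297 before. The mean over the oxygen times was -1.06 ± 0.12 (limma adjusted p = 0.000833). No fold is given, because the mutant mean of 236 at 72 h lay under the filter value of 273, so that the size of the difference depends on the value added before the log2. A further Slc7a11 probe set on type A was too dim to be tested, with intensities of 16 to 58 in mutant lungs and of 43 to 110 in wild type lungs.

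Gss (chromosome 2, 155563181 to 155592810, GRCm38) adds glycine in the last step of synthesis. Its intensity at 72 h was 1197 and 1002 on the mutant arrays, against 1690 and 1467 on the wild type arrays. Over all times it lay between 887 and 1365 on the mutant arrays, with a median of 1197, and between 1125 and 1690 on the wild type arrays, with a median of 1522. The groups did not overlap at 48 h and at 72 h, yet the log2 differences of -0.63 ± 0.20 and -0.49 ± 0.20 did not pass (limma adjusted p = 0.310 and 0.444). A dimmer Gss probe set, with 105 to 456 over all arrays, was called in no comparison.

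Gsr (chromosome 8, 33653238 to 33698162, GRCm38) reduces oxidised glutathione with NADPH. On the mutant arrays its intensity was 909 at 0 h, 1757 and 2303 at 24 h, 1443 and 1067 at 48 h, and 1645 and 1783 at 72 h. On the wild type arrays it was 1654 and 1241 at 0 h, 1904 at 24 h, 1633 and 1633 at 48 h, and 2512 and 2849 at 72 h. The wild type arrays at 72 h were above all others, while at 24 h the wild type array lay between both mutant arrays. The log2 difference at 72 h was -0.62 ± 0.21 and did not pass (limma adjusted p = 0.304), nor did the mean over the oxygen times of -0.31 ± 0.13 (adjusted p = 0.413).

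**Figure D3:**
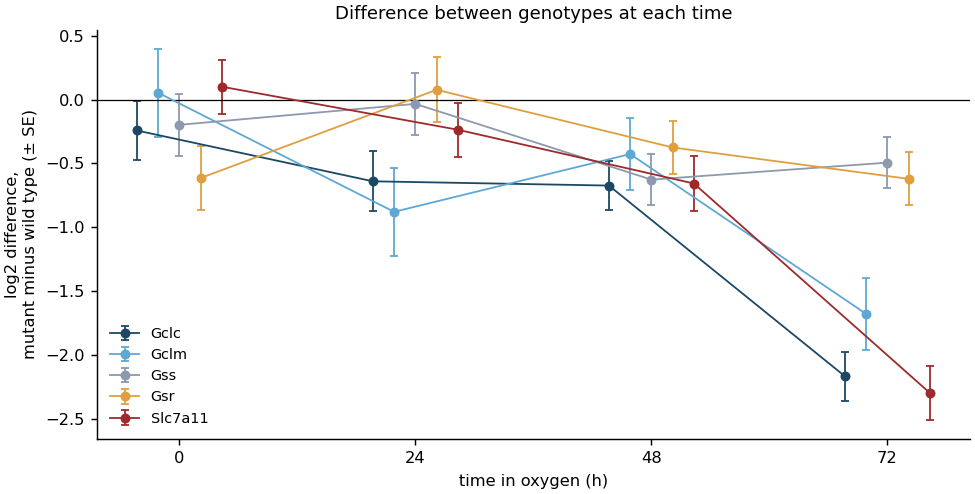
Log2 difference between genotypes, mutant minus wild type, with its SE, against hours in oxygen for the brightest probe set of each gene. Gclc, Gclm and Slc7a11 reach -2.17, -1.68 and -2.30 at 72 h, and Gss and Gsr lie at -0.49 and -0.62.

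No member was called between genotypes at 0, 24 or 48 h, where 2.75%, 0.157% and 0.377% of all probe sets were called in either direction. At an unadjusted limma p under 0.05, 1 of 5 genes passed at 0 h (Gsr), 2 at 24 h (Gclc and Gclm) and 3 at 48 h (Gclc, Gss and Slc7a11), where 17.5%, 9.76% and 9.02% of all probe sets passed. For the mean over the oxygen times, in which the mutant 0 h arrays take no part, Gclc, Gclm and Slc7a11 were called lower in the mutant, against 0.664% of all probe sets. For the mean over all 4 times, Gclc (-0.93 ± 0.11, limma adjusted p = 0.00158) and Slc7a11 (-0.77 ± 0.11, limma adjusted p = 0.00240) were called lower, against 0.813% of all probe sets, and Gclm did not pass (-0.73 ± 0.16, limma adjusted p = 0.0503). With replicate 1a or 1b as a replicate block, Gclm passed (-0.73 ± 0.12, limma adjusted p = 0.0172). The brighter Gclm probe set of type B was called lower over the 4 times (-0.69 ± 0.11, limma adjusted p = 0.00581). It was also called lower over the oxygen times (-0.68 ± 0.12, limma adjusted p = 0.0164), and the dimmer one was called in neither.

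Some cell markers also differed between genotypes at 72 h, where 0.466% of all probe sets were called lower. None of 7 lung epithelium or 4 endothelium markers was called. Of 9 neutrophil markers 8 were measured, and 3 of them (S100a8, S100a9 and Ngp) were called lower in the mutant. All 8 measured markers together summed on type A to 10010 to 13360 on the mutant arrays at 72 h, against 23460 to 24880 on the wild type arrays, and no marker was at 0. Lcn2, a large part of the mutant sum, overlapped, with 4418 and 7075 against 6311 and 7013. The median log2 difference of the 8 was -1.11. At 24 h the same sum was 23680 to 23950 on the mutant arrays, against 12620 on the wild type array. Of the 6 macrophage markers 1, Marco, was called lower in the mutant (-1.43 ± 0.17, limma adjusted p = 0.00354), with 324 and 375 on the mutant arrays at 72 h, against 1020 and 1126 on the wild type arrays. Csf1r also had a lower mean in the mutant (1209 against 1478). Cd68, Mrc1 and Adgre1 had higher ones (3801 against 2553, 836 against 569 and 429 against 282), and none of these was called. The median log2 difference of the 6 was 0.251. The 6 together summed to 24070 to 25950 on the mutant arrays at 72 h, against 22120 to 25500 on the wild type arrays. Most of that sum was Chil3, which was not called, so the sum does not describe a balance of the 6. The part of these cells in the lower Gclc, Gclm and Slc7a11 was not tested. In whole lung RNA, fewer cells of a type and less RNA per cell cannot be told apart.

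In the mutant, the calls for oxygen rest on the 0 h arrays that stood apart. Gsr was called higher at 24 h (1.08 ± 0.25, limma adjusted p = 0.0116) and at 72 h (0.86 ± 0.25, limma adjusted p = 0.0351), and Gclc at 48 h (0.83 ± 0.23, limma adjusted p = 0.0347). That is 1 of 5 genes at each time, where 12.3%, 9.62% and 11.0% of all probe sets were called higher at 24, 48 and 72 h. Set against wild type at 0 h, these differences were 0.47 ± 0.21 for Gsr at 24 h, 0.24 ± 0.21 for Gsr at 72 h and 0.58 ± 0.19 for Gclc at 48 h, and none passed (limma adjusted p = 0.192, 0.526 and 0.105), where 5.12%, 6.25% and 3.56% of all probe sets were called higher. The Gsr call at 24 h was also lost without mutant 24 h replicate 1b (0.89, adjusted p = 0.0612). The Gsr call at 72 h and the Gclc call at 48 h were lost without either mutant replicate of their time, and without either wild type 48 h replicate, which enters only the estimate of spread (adjusted p of 0.0505 to 0.113). In the mutant at 72 h, Slc7a11 differed from 0 h by 0.32 ± 0.21, Gclc by 0.37 ± 0.23, Gss by -0.04 ± 0.24 and Gclm by -0.35 ± 0.34, and none of these passed (limma adjusted p = 0.327, 0.317, 0.930 and 0.527). Against wild type at 0 h the same genes differed by 0.42 ± 0.21, 0.12 ± 0.19, -0.24 ± 0.20 and -0.30 ± 0.28. None of these passed either (limma adjusted p = 0.238, 0.755, 0.513 and 0.575). On type B, the dimmer Gclc probe set differed from 0 h by -0.14 ± 0.39 at 48 h. The brighter Gclm probe set of that type differed by 0.53 ± 0.21 at 72 h. Neither passed (limma adjusted p = 0.854 and 0.0981).

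In wild type lungs 4 of the 5 genes rose by 72 h of oxygen. No member was called at 24 h, where 0.962% of all probe sets were called higher. At 48 h Gclc (1.26 ± 0.19, limma adjusted p = 0.00515) and Slc7a11 (1.14 ± 0.21, limma adjusted p = 0.00886) had risen, where 3.28% of all probe sets were called higher. At 72 h the differences from 0 h were 2.72 ± 0.21 for Slc7a11, 2.29 ± 0.19 for Gclc, 1.38 ± 0.28 for Gclm and 0.87 ± 0.21 for Gsr (limma adjusted p = 3.04e-05, 9.70e-05, 0.0145 and 0.0305). The share of all probe sets called higher at 72 h was 4.27%. Gss differed by 0.25 ± 0.20 and did not pass (limma adjusted p = 0.530). On type B, the dimmer Gclc probe set rose by 1.54 ± 0.39 at 72 h, which passed, and by 1.24 ± 0.39 at 48 h, which did not (limma adjusted p = 0.0305 and 0.0794). That probe set was above its filter value only on the wild type arrays of 48 and 72 h, so its rise is no separate support. The brighter Gclm probe set of type B rose by 0.94 ± 0.21 at 72 h (limma adjusted p = 0.0190). The mean intensity of Gclc was 5.21-fold, that of Gclm 2.74-fold and that of Gsr 1.85-fold higher at 72 h than at 0 h in wild type lungs. The call for Gclm was lost without replicate 1a of wild type at 0 h (1.09, adjusted p = 0.110) and without replicate 1b of wild type at 72 h (1.14, adjusted p = 0.112). The call for Gsr was lost when wild type 0 h replicate 1b or either wild type 72 h replicate was left out, with differences of 0.67 to 0.95 and adjusted p of 0.0796 to 0.192. That for Slc7a11 at 48 h was lost without wild type 0 h replicate 1a or either 48 h replicate, with differences of 1.04 to 1.15 and adjusted p of 0.0580 to 0.0647.

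The response to 72 h of oxygen differed between the genotypes for Slc7a11 and Gclc. The difference in response, mutant minus wild type, was -2.40 ± 0.30 for Slc7a11 (limma adjusted p = 0.00263) and -1.92 ± 0.30 for Gclc (limma adjusted p = 0.0162). These are 2 of 5 genes, where 0.794% of all probe sets were called in this direction. The brightest Gclm probe set had a difference of similar size, -1.73 ± 0.44, that did not pass (limma adjusted p = 0.0942). The Gclm probe sets of type B had smaller ones, -0.41 ± 0.30 for the brighter and -0.07 ± 0.35 for the dimmer. Neither passed (limma adjusted p = 0.600 and 0.960). Gss had -0.30 ± 0.315 and Gsr -0.01 ± 0.33 (limma adjusted p = 0.743 and 0.997). The dimmer Gclc probe set of type B had -1.96 ± 0.55 and was not called (limma adjusted p = 0.106). The Gclc call was lost without mutant 72 h replicate 1b, wild type 0 h replicate 1b or wild type 72 h replicate 1b, with adjusted p of 0.0536 to 0.0577. No member was called for the response at 24 h or at 48 h, where 1.95% and 0.652% of all probe sets were called in either direction, and none of the 5 had an unadjusted limma p under 0.05 at 24 h, while Slc7a11 alone did at 48 h. At that threshold 16.8% of all probe sets passed at 24 h and 11.9% at 48 h.

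The step between 48 and 72 h leaves the 0 h arrays out, and was added after the data were seen. In the mutant the step was -0.06 ± 0.21 for Slc7a11 and -0.46 ± 0.19 for Gclc, and no member was called (limma adjusted p = 0.950 and 0.319), with 2.05% of all probe sets called in either direction. In wild type lungs it was 1.58 ± 0.21 for Slc7a11 and 1.03 ± 0.19 for Gclc, and both were called (limma adjusted p = 0.00743 and 0.0471), where 0.395% of all probe sets were called higher. The difference between these steps was -1.64 ± 0.30 for Slc7a11 and -1.49 ± 0.27 for Gclc, and neither passed the adjustment over all probe sets (limma adjusted p = 0.109 and 0.137). For Gclm it was -1.25 ± 0.40 and did not pass (limma adjusted p = 0.530). Only 9 of 26821 probe sets (0.0336%) passed in that comparison. The dimmer Gclc probe set of type B had a wild type step of 0.30 ± 0.39, which did not pass (limma adjusted p = 0.827).

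**Figure D4:**
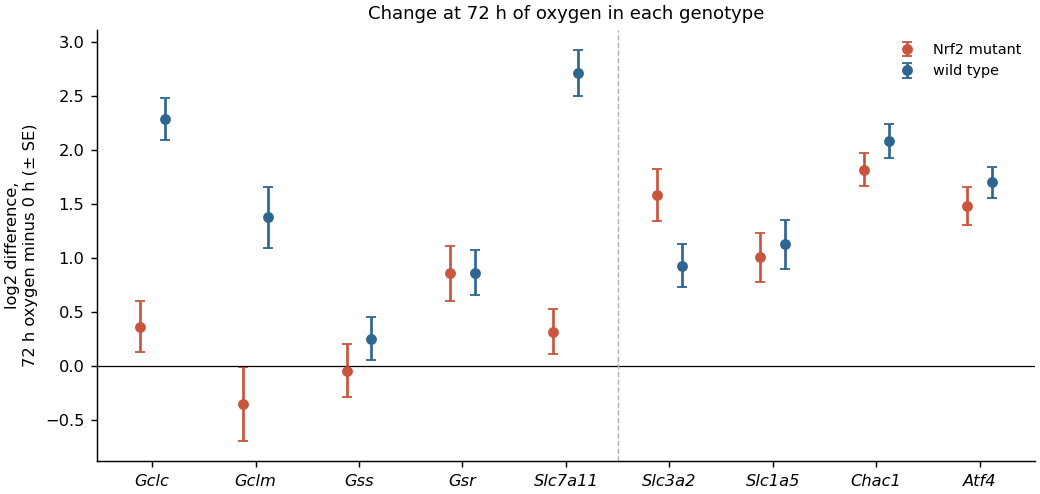
Log2 difference at 72 h of oxygen against 0 h, with its SE, in mutant lungs (left point) and wild type lungs (right point), for the 5 genes left of the dashed line and 4 other genes of the pathway and its regulation right of it. Slc7a11, Gclc and Gclm lie near 0 in the mutant and at 2.72, 2.29 and 1.38 in wild type lungs. Slc3a2, Slc1a5, Chac1 and Atf4 lie above 0.9 in both, but were named for being among the largest called changes at 72 h. Over all 30 measured other genes of the pathway and its regulation, the median was 0.304 in the mutant and 0.16 in wild type lungs.

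Of 34 further genes of cysteine supply, glutathione breakdown and glutathione use, 27 were measured. None was called between genotypes at 72 h or over the oxygen times, where only 0.466% and 0.664% of all probe sets were called lower. The median log2 difference of the 27 genes at 72 h was -0.118, beside -0.00843 over all tested probe sets. Under 72 h of oxygen 4 were called higher and 2 lower in the mutant, where 11.0% of all probe sets were called higher and 10.5% lower. In wild type lungs 4 were called higher and 1 lower, where these shares were 4.27% and 3.59%. Slc3a2, the partner chain that carries xCT to the cell surface, averaged 11130 ± 1273 in mutant lungs at 72 h, against 3650 on the mutant array at 0 h (SD, n = 2 and 1). It averaged 11668 ± 2797 in wild type lungs at 72 h, against 6000 ± 184 at 0 h (SD, n = 2 each). Slc3a2 differed from 0 h by 1.58 ± 0.24 in the mutant and by 0.93 ± 0.20 in wild type (limma adjusted p = 0.00121 and 0.0179). The genotype difference of Slc3a2 at 72 h was -0.05 ± 0.20 and did not pass (limma adjusted p = 0.979), beside -2.30 for Slc7a11. A second Slc3a2 probe set on type C was called in none of these comparisons.

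Chac1, which breaks down glutathione inside the cell, averaged 4680 ± 704 in mutant lungs at 72 h, against 1229 ± 65.0 at 0 h (SD, n = 2 each). In wild type lungs it averaged 5889 ± 181 at 72 h, against 1290 ± 4.79 at 0 h (SD, n = 2 each). Its response was 1.82 ± 0.15 in the mutant and 2.09 ± 0.15 in wild type (limma adjusted p = 1.50e-05 and 2.19e-05). Atf4, the transcription factor of the amino acid response that is known to activate Chac1 and Slc7a11, rose by 1.48 ± 0.18 in the mutant and by 1.70 ± 0.14 in wild type (limma adjusted p = 0.000291 and 9.85e-05). Slc1a5, a transporter of glutamine and other neutral amino acids, rose by 1.01 ± 0.23 in the mutant and by 1.13 ± 0.23 in wild type (limma adjusted p = 0.00766 and 0.0105). Of the other Slc1a5 probe sets, one on type A was called in the mutant and in wild type (0.83 ± 0.22 and 1.42 ± 0.18, limma adjusted p = 0.0211 and 0.00111), and one on type C in neither (0.46 ± 0.29 and 0.63 ± 0.29, limma adjusted p = 0.301 and 0.234). The differences in response of Chac1 (-0.27 ± 0.22), Atf4 (-0.22 ± 0.23), Slc1a5 (-0.12 ± 0.32) and Slc3a2 (0.65 ± 0.31) did not pass (limma adjusted p = 0.647, 0.732, 0.913 and 0.379). Against wild type at 0 h the mutant at 72 h still differed by 1.76 ± 0.15 for Chac1, 1.91 ± 0.14 for Atf4, 0.88 ± 0.20 for Slc3a2 and 0.75 ± 0.23 for Slc1a5, and all of these passed (limma adjusted p = 2.49e-05, 2.85e-05, 0.0154 and 0.0497). In that comparison 6.25% of all probe sets were called higher and 6.68% lower. Csad, which turns a product of cysteine oxidation towards taurine, was called lower by oxygen in the mutant (-1.14 ± 0.23, limma adjusted p = 0.00619) and in wild type (-0.77 ± 0.19, limma adjusted p = 0.0349). Of 2 dimmer Csad probe sets on type C, neither was called.

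The genes whose brightness followed each member most closely over the arrays were found by Pearson's r of log2 intensity, over the 14 arrays of type A or the 16 of type B. These arrays share their group structure, so r is given as a description. For Gclc the closest were Txnrd1 (r = 0.955), a thioredoxin reductase, Tgfbi (r = 0.920) and Me1 (r = 0.899), the cytosolic malic enzyme that makes NADPH. For Gclm they were Srxn1 (r = 0.910), sulfiredoxin, Strap (r = 0.877) and Fgfbp1 (r = 0.868). For Slc7a11 they were Osgin1 (r = 0.895), Fut4 (r = 0.866) and Bcl3 (r = 0.858). For Gss they were Gsta2 (r = 0.857), a glutathione transferase, Trim21 (r = 0.844) and Sfrp2 (r = 0.835). For Gsr they were Sun2 (r = 0.883), Basp1 (r = 0.842) and Xdh (r = 0.838).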

How the data were processed

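The deposited tables hold linear intensity values, and the sources used here do not name the authors' tool. The 2% trimmed mean was between 800.2 and 800.5 on every array, and this scaling was kept. The 25th percentile of the array type (78.5, 126 and 106 for A, B and C) was added before the log2, which makes log2 differences of dim probe sets smaller. Probe sets above the 40th percentile (196, 273 and 210) on at least 2 arrays were tested. Symbols came from the platform annotation, updated through gene IDs, and a gene was represented by its brightest probe set, with others given beside it.

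limma 3.58.1 in R 4.3.3 was fitted once per array type with 1 mean per group, so that a group of 1 array borrows the spread of the others. Two-sided p-values were Benjamini-Hochberg adjusted over all 26821 probe sets of a comparison. The procedure was tested on simulated data. Genes named outside the members were Nfe2l2 and, from a list of other pathway genes, the up to 4 largest called changes per comparison. The most alike genes were the 3 with the highest r. The members and lists were chosen with earlier results of these data known. The number of arrays limits the precision.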

Additional observations from a re-analysis of the deposited data

Results flagged for a closer look

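For 2 genes the response to 72 h of oxygen differed between the genotypes by the test of the difference itself. Slc7a11 had a difference in response, mutant minus wild type, of -2.40 on the log2 scale (limma adjusted p = 0.00263), and Gclc one of -1.92 (limma adjusted p = 0.0162). Both comparisons use mutant arrays at 0 h, which stood apart from the others in the ratio of 3' to 5' Gapdh signal. The muscle and squamous marker sums were taken on the lone type A array, on which Gclc was read, while Slc7a11 was read on type B. From 48 to 72 h, without those arrays, the differences were -1.64 and -1.49 and did not pass (limma adjusted p = 0.109 and 0.137). The dimmer Gclc probe set of type B had a 72 h difference in response of -1.96 ± 0.55, which did not pass (limma adjusted p = 0.106).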

How the results depend on the processing

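Beside 9 other settings, every 1 of the 16 replicates was omitted once. The lower Gclc and Slc7a11 in the mutant at 72 h and over the oxygen times, and their rise at 72 h in wild type, kept their direction and their call under every alternative that gave a value. Leaving out the lone type A array of the mutant at 0 h or of wild type at 24 h gave no value for comparisons with those groups. Fitted on the arrays compared alone, 0 genes were called in the mutant at 24, 48 or 72 h in place of 1, 2 in wild type at 72 h in place of 4, and 1 in place of 2 for the 72 h difference in response. Among the other pathway genes, it gave 3 in the mutant and 1 in wild type at 72 h, in place of 6 and 5. On those arrays Gclm at 72 h had an adjusted p of 0.0938 between genotypes, and Gclc one of 0.103 for the difference in response. Quantile normalization gave 2 calls in the mutant at 24 h, 0 in the mutant at 48 h and, as the stricter filter did, 1 in wild type at 24 h in place of 0. Against wild type at 0 h, an alternative chosen after seeing the data, the mutant counts at 24, 48 and 72 h were 0. The step from 48 to 72 h, also added, gave 0 calls for the difference in response.

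Leaving out 1 replicate gave 2 to 3 calls between genotypes at 72 h, over the oxygen times and over all 4 times, and 0 to 0 at 0, 24 and 48 h. It gave 0 to 1 in the mutant at each time, 0 to 0 in wild type at 24 h, 1 to 2 at 48 h and 2 to 4 at 72 h, and 1 to 2 for the 72 h difference in response. The other pathway genes gave 4 to 7 calls in the mutant at 72 h and 1 to 5 in wild type, being 1 when replicate 1a of wild type at 0 h was omitted, and 3 for its replicate 1b or either 72 h replicate.

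Directions turned only in differences that had not passed. With the replicate block, Gclm at 0 h between genotypes was -0.12 (0.05 without it), and the replicate block changed the call of 1 of 49 values, Gclm over the 4 times, from 2 members called to 3. It moved none of 19 counts by over 1.5 times, with 8 other pathway genes called in the mutant at 72 h in place of 6. The numbers 1a and 1b were not taken as pairs, because the labels do not say that they mark a shared animal, batch or day. Of the correlations of the groups' deviations, 7 of 15 were over 0.1 on type A, 18 of 28 on B (median 0.127) and 2 of 28 on C. A shared effect of 1a or 1b entered only as the replicate block and was not tested by itself. Gclm over the 4 times also passed with a doubled added value, the stricter filter, and eBayes with trend and robust (adjusted p = 0.0335, 0.0287 and 0.0242). With the mean of the probe sets, Gss was -0.29 in wild type at 72 h and 0.0059 in the difference in response, where the later step gave 0.13. Gsr in the difference in response was 0.0128 with a floor. Over the left-out replicates, the genotype difference at 0 h ran between -0.24 and 0.34 for Gclm, between -0.40 and 0.008 for Gss and between -0.12 and 0.32 for Slc7a11. At 24 h it ran between -0.0746 and 0.0073 for Gss and between -0.11 and 0.26 for Gsr. Gss in the mutant at 72 h ran between -0.16 and 0.0759, and Gsr in the difference in response between -0.20 and 0.19.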
